A study of Mus musculus with 10 samples.

Results

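The 36 genes described here are those of retinal blood vessels: 22 of endothelial cells, 9 of the mural cells that wrap them (pericytes and smooth muscle) and 5 that encode secreted angiogenic factors. They were taken by gene symbol from the table of 25905 genes, whatever their values, and all 36 symbols were found. Total RNA had been sequenced from 10 retinas of wild type C57BL/6J mice at postnatal day 34. Both retinas came from each of 5 animals, numbered 61, 64, 65, 66 and 68. Each mouse had worn a lens of −20 dioptres over 1 eye for 10 days from postnatal day 24, which drives the eye towards myopia, and the fellow eye had none. Which eye wore the lens is not labelled, only left or right, so the groups are left retina (5 libraries) and right retina (5 libraries) and neither stands for lens or control. The number shared by 2 retinas was taken as that of the animal.

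Retinal vessels are built from an endothelial tube sealed by tight junctions, the inner blood-retinal barrier, and covered densely by pericytes. VEGF-A, made by neurons and glia, acts on endothelial receptors to keep vessels alive and make them grow. Angiopoietins act on the receptor Tek, and PDGF-B from endothelium holds pericytes that carry its receptor. The fenestrated choroidal vessels behind the retina belong to another bed. By its labels the study set lens-wearing eyes against untreated fellow eyes.

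Values are CPM, read counts scaled to library size, with 1 CPM resting on 89.7 to 113.8 counts in a library. Of the 36 genes, 25 averaged 1 CPM or more over the 10 libraries and were tested. The other 11 (Tie1, Emcn, Mfsd2a, Plvap, Sox17, Erg, Tagln, Des, Angpt1, Angpt2 and Pdgfb) lay below it, on 32 to 97 counts per library on average. Several libraries stand apart in other features. The left retina of mouse 68 was high in skeletal muscle genes, the right retina of mouse 65 was high in lens genes (a sum of 870.8 CPM over the 11 genes of that list, against 8.57 to 123.6 CPM), and the labels record damaged raw reads for the right retina of mouse 64. The left retinas of mice 65 and 68 were low in the fibroblast and sclera list, with sums of 14.6 and 14.997 CPM where the other 8 libraries had 23.1 to 32.2 CPM. Its gene Fbln1 was at 0.719 and 0.446 CPM in them and at 3.06 to 10.7 CPM elsewhere. In bulk retina a lower value can mean fewer vascular cells or less RNA per cell, and these cannot be told apart.

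A few genes carried most of the signal. Vegfa, Rgs5, Kdr and Flt1 each exceeded 23 CPM in every library, while the median of the 36 means was 1.39 CPM. Levels of different genes were compared per kilobase of annotated exon, as mean ± SD over the 10 libraries. The length is the union of all annotated exons of a gene, a choice that the SD does not cover. On the scale per kilobase Vegfa led with 7.69 ± 0.561 CPM per kb. The pericyte regulator Rgs5 followed with 6.40 ± 0.463 and the VEGF receptor gene Kdr with 4.90 ± 0.370. Flt1, which encodes a VEGF receptor that also acts as a decoy, stood at 1.94 ± 0.120 CPM per kb, and Vegfb at 1.85 ± 0.139, closer to each other than their spread. Next came the small surface antigen gene Ly6c1 (1.52 ± 0.148) and the tight junction gene Cldn5 (1.47 ± 0.249), also within their spread. At the foot were the transcription factor gene Sox17 (0.0806 ± 0.0182), Des (0.0877 ± 0.0931) and Cspg4 (0.111 ± 0.0183).

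**Figure D1:**
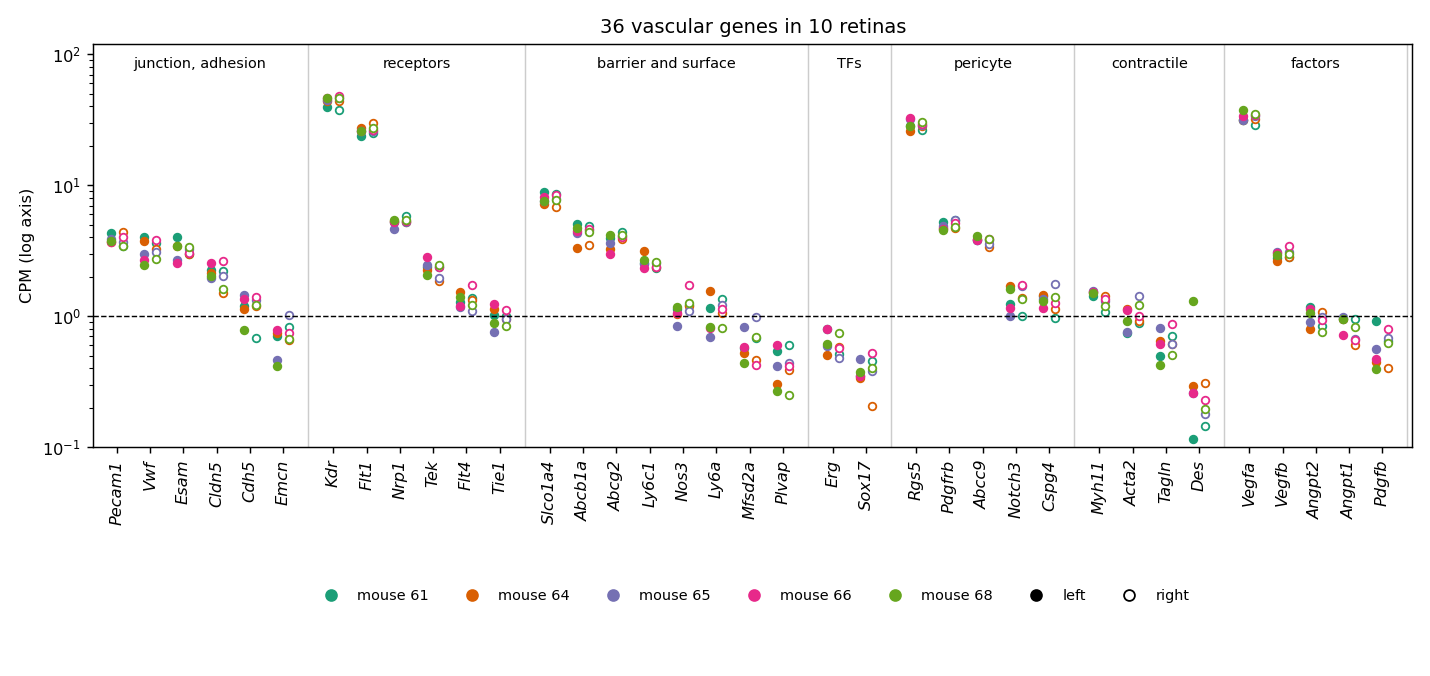
CPM (log axis) of the 36 vascular genes, sorted by mean level within groups of like role. Each point is 1 library, coloured by mouse, filled for the left and open for the right retina, and the dashed line is 1 CPM, to which the mean over libraries was compared. Kdr, Flt1, Rgs5 and Vegfa stand above all other members, and Des has 1 high library at 1.31 CPM.

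Among the endothelial junction genes, Pecam1, an adhesion molecule found on all endothelium (chromosome 11, bases 106654217 to 106750628 of GRCm38), was steady at 3.42 to 4.37 CPM. In left retinas, in the order of mice 61, 64, 65, 66 and 68 used throughout, it measured 4.31, 3.67, 3.88, 3.70 and 3.77 CPM, and in the right retinas 3.42, 4.37, 3.68, 3.99 and 3.46 CPM. The sides overlapped fully, and which eye was higher changed from mouse to mouse. Cdh5, the gene of VE-cadherin (chromosome 8, bases 104101625 to 104144511), ran from 0.679 CPM in the right retina of mouse 61 to 1.44 CPM in the left library of mouse 65. Cldn5, whose claudin seals the barrier (chromosome 16, bases 18776847 to 18778262), ran from 1.51 CPM in the right retina of mouse 64 to 2.64 CPM in the right retina of mouse 66. Both retinas of mouse 66 (2.53 and 2.64 CPM) lay above the other 8 for Cldn5. The adhesion gene Esam and the clotting factor gene Vwf ran over 2.55 to 4.01 and 2.44 to 4.01 CPM, and the sialomucin gene Emcn over 0.415 to 1.03 CPM.

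The endothelial receptors were led by Kdr (chromosome 5, bases 75932827 to 75978458), which encodes the main signalling receptor for VEGF-A. Kdr measured 39.3, 43.9, 44.97, 46.0 and 46.2 CPM in left retinas and 37.5, 44.2, 46.3, 47.8 and 46.7 CPM in right ones. Both retinas of mouse 61 were the lowest, and the other 8 lay within 43.9 to 47.8 CPM. Flt1 (chromosome 5, bases 147561604 to 147726011) measured 23.7, 27.6, 25.8, 25.8 and 25.8 CPM for left retinas and 24.9, 29.7, 25.8, 26.2 and 27.2 CPM for right retinas. It too was lowest in both retinas of mouse 61, and it was highest in both of mouse 64. Nrp1, a VEGF co-receptor that neurons also express, ran from 4.62 to 5.86 CPM. Tek, the angiopoietin receptor, ran from 1.84 to 2.83 CPM, and Flt4, the receptor for VEGF-C, from 1.10 to 1.73 CPM. Tie1, the partner receptor of Tek, had a mean just under the filter, at 1.01 ± 0.196 CPM for left retinas and 0.976 ± 0.0983 CPM for right retinas (SD, n = 5 each).

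The barrier transporters and surface genes were led by Slco1a4 in CPM. Slco1a4, an organic anion transporter of brain and retinal endothelium (chromosome 6, bases 141805440 to 141856199), measured 8.93, 7.22, 7.55, 8.11 and 7.60 CPM in left retinas and 8.55, 6.85, 7.91, 8.50 and 7.67 CPM in right retinas. Abcb1a, the P-glycoprotein efflux pump (chromosome 5, bases 8660077 to 8748575), measured 5.06, 3.32, 4.32, 4.44 and 4.73 CPM for left retinas and 4.89, 3.499, 4.54, 4.60 and 4.39 CPM for right retinas. Both genes were highest in the retinas of mouse 61 and lowest in those of mouse 64, the reverse of the order of Flt1 in these mice. Abcg2, another efflux pump (chromosome 6, bases 58584523 to 58695676), is described with the sides below. Mfsd2a, a lipid transporter that restrains transcytosis, ran from 0.422 to 0.982 CPM, and Nos3, the endothelial nitric oxide synthase, from 0.848 to 1.73 CPM. Ly6a and Ly6c1 have close relatives in sequence and Abcb1a overlaps the listed gene Gm42684 on its strand. Among others, Nos3, Des, Plvap, Tagln, Notch3, Angpt1, Angpt2, Pdgfb and Sox17 overlap a gene on the opposite strand. Whether reads were counted by strand, or shared among such genes, is not stated in these sources, and their values are uncertain to that extent.

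Plvap, a marker of fenestrated endothelium such as that of the choroid (chromosome 8, bases 71497765 to 71511752), ran from 0.252 to 0.601 CPM. Per kilobase it stood at 0.212 ± 0.0643 CPM (SD over 10 libraries), near Tie1 (0.202 ± 0.030) and Vwf (0.202 ± 0.0338). Emcn was lower (0.130 ± 0.0323), and Cdh5 (0.279 ± 0.0601) and Pecam1 (0.614 ± 0.0515) were higher. The 12 genes of a list for pigment epithelium and choroidal melanocytes, cells behind the retina, summed to 330.5 to 349.0 CPM for left retinas and 334.6 to 365.2 CPM for right retinas. Most of that sum came from Trpm1, Trpm3 and Rlbp1, which retinal cells also express. The other genes of the list differed in level. Best1 was at most 0.131 CPM, Mlana at most 0.563 CPM, Tyr at most 1.41 CPM and Rpe65 at most 3.0 CPM. Dct ran from 2.22 to 8.47 CPM, Ttr from 3.73 to 7.90 CPM, and Enpp2 reached 17.8 CPM. Pmel ran from 0.978 to 2.78 CPM and Lrat from 0.939 to 2.43 CPM. The part of such tissue in the members' values was not tested. The endothelial transcription factors Sox17 and Erg ran from 0.207 to 0.518 and from 0.480 to 0.802 CPM.

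Promoter sequence is shown for 4 genes with results given here. These are Flt1 and Slco1a4, whose levels differed between mice at an unadjusted p under 0.05, Abcg2, which did so between sides, and Vegfa, the most abundant member per kilobase. Each is the 250 bases before a RefSeq start on GRCm38.p6, written 5′ to 3′ on the strand of the gene and chosen to overlap no exon of GENCODE M21. Capitals mark matches on either strand to a purine-rich ETS-type motif (AGGAAG or CGGAAG) and to the core of the hypoxia response element (ACGTG or GCGTG).
Flt1, chr5:147726012-147726261, minus strand: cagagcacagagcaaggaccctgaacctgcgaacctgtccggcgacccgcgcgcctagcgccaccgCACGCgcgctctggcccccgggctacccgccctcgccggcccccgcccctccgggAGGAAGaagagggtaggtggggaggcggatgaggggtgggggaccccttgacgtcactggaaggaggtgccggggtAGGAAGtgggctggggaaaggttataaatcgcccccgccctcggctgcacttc
Slco1a4, chr6:141856221-141856470, minus strand: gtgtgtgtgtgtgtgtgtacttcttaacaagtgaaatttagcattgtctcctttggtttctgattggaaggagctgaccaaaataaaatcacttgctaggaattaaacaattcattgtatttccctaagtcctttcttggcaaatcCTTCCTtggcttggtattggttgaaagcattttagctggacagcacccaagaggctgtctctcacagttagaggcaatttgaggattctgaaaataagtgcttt
Abcg2, chr6:58640296-58640545, plus strand: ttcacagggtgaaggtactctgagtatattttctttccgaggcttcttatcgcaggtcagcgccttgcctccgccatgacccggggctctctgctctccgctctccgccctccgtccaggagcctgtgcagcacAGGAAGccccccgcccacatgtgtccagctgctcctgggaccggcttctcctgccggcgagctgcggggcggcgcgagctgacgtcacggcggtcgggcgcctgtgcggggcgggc
Vegfa, chr17:46032378-46032627, minus strand: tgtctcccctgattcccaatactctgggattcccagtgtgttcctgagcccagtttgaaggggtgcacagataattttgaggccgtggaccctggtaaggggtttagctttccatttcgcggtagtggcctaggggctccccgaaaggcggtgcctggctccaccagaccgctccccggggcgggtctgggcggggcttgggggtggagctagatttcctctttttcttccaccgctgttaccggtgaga
The Flt1 stretch held 2 ETS-type matches and 1 hypoxia match and was rich in G and C (70.4%). Slco1a4 and Abcg2 held 1 ETS-type match each, with 39.2% and 67.6% G and C, and the Vegfa stretch held neither motif. A second listed Vegfa start, whose 250 bases overlap annotated exons and are not printed, held 2 hypoxia matches and 0 ETS-type matches. The printed Abcg2 stretch lies inside the gene. Stretches at other listed Abcg2 starts (chr6:58584283-58584532 and chr6:58596422-58596671) overlap annotated exons and are not printed. They held 1 and 2 ETS-type matches and 0 hypoxia matches. Among the 32851 promoters of the table, 39.2% held the ETS-type motif and 38.6% the hypoxia motif. Starts were listed for 22 of the 36 members, 28 starts in all, of which 11 held the ETS-type and 9 the hypoxia motif.

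Rgs5 led the mural genes, in CPM and per kilobase. This gene (chromosome 1, bases 169655501 to 169695813) measured 28.6, 26.2, 31.9, 32.8 and 28.3 CPM in left retinas and 26.5, 28.3, 28.9, 29.2 and 30.4 CPM in right retinas. The sides overlapped, with the right retina lower in 3 mice and higher in 2. Pdgfrb, the receptor that PDGF-B acts on, ran from 4.53 to 5.44 CPM, and Abcc9, a subunit of the pericyte potassium channel gated by ATP, from 3.40 to 4.09 CPM. Abcc9 was the steadiest of the 36 genes, with a coefficient of variation of 4.97% over the 10 libraries where counting alone gives 5.204%. The proteoglycan gene Cspg4 ran from 0.969 to 1.77 CPM and the receptor gene Notch3, needed by arterial smooth muscle, from 0.998 to 1.73 CPM.

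The contractile genes were near or below 1 CPM. Myh11, the smooth muscle myosin heavy chain (chromosome 16, bases 14194535 to 14291372), ran from 1.07 to 1.57 CPM, Acta2, smooth muscle actin, from 0.738 to 1.43 CPM, and Tagln, the gene of transgelin, from 0.425 to 0.870 CPM. Des, the intermediate filament gene of muscle and of pericytes (chromosome 1, bases 75360329 to 75368579), reached 1.31 CPM in the left library of mouse 68, while the remaining 9 held 0.116 to 0.310 CPM. That same library was the one in which skeletal muscle genes were high. The 12 genes of the skeletal muscle list summed to 279.1 CPM there and to 27.4 to 34.0 CPM elsewhere, most of it Ttn. Acta1 was at 10.0 CPM against at most 0.821 CPM, Myh4 at 21.8 CPM, and Tpm2, a tropomyosin gene taken as a further mural marker, at 5.399 CPM against at most 0.669 CPM. Acta2, Tagln and Myh11 in that library measured 0.925, 0.425 and 1.499 CPM, inside the range of the other left retinas for Acta2 and Myh11 and the lowest of the 10 for Tagln. The part of skeletal muscle RNA in the Des value was not tested. Without Des, the mural genes of that library summed to 42.7 CPM, within the 40.3 to 46.8 CPM of all 10.

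**Figure D2:**
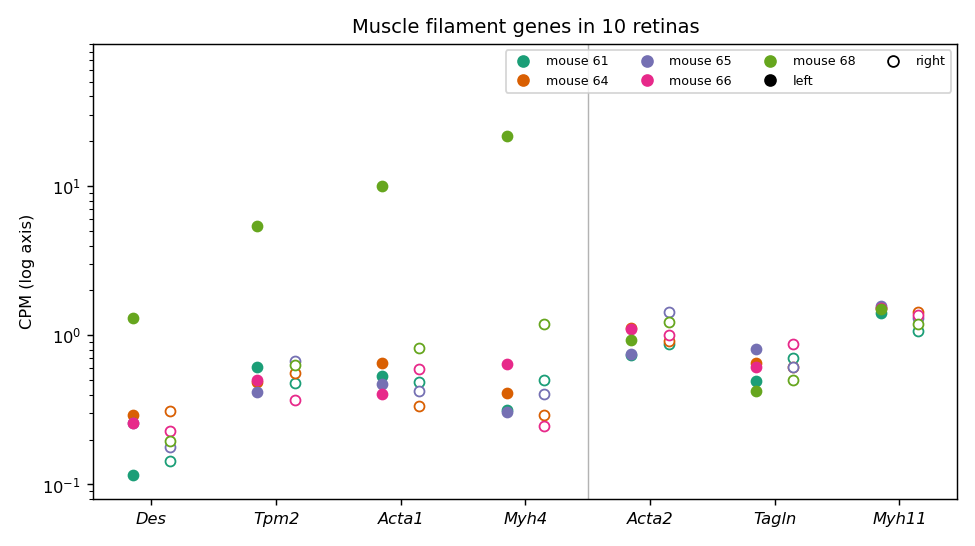
CPM (log axis) of Des and 3 muscle genes, Tpm2, Acta1 and Myh4 (left of the line), and of the smooth muscle genes Acta2, Tagln and Myh11 (right of it). Points are libraries, coloured by mouse, filled for left and open for right. The left retina of mouse 68 is far above the rest for Des (1.31 CPM), Tpm2 (5.399 CPM), Acta1 (10.0 CPM) and Myh4 (21.8 CPM), and not for the smooth muscle genes.

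Of the secreted factors, Vegfa (chromosome 17, bases 46016993 to 46032369) exceeded the other 4 by far. It measured 31.8, 31.4, 31.4, 33.6 and 37.5 CPM in left retinas and 28.8, 32.0, 33.8, 34.4 and 34.8 CPM in right retinas. Both retinas of mouse 68 were above the other 8, the right one (34.8 CPM) only just above the right retina of mouse 66 (34.4 CPM). The left one is the library high in skeletal muscle genes, and the part of such RNA in its Vegfa value was not tested. Vegfb, a relative that binds Flt1 and not Kdr (chromosome 19, bases 6982473 to 6987651), measured 2.65 to 3.08 CPM for left retinas and 2.83 to 3.45 CPM for right retinas. The angiopoietins, of which Angpt1 activates Tek and Angpt2 can block it, were both low. Per kilobase Angpt2 stood at 0.262 ± 0.0389 and Angpt1 at 0.159 ± 0.0288 CPM (SD over 10 libraries). Angpt1 measured 0.949, 0.953, 0.977, 0.722 and 0.957 CPM in left retinas and 0.957, 0.601, 0.669, 0.659 and 0.821 CPM in right retinas, lower on the right in 4 mice. With no filter on low values its difference was −0.14 log2 units (SE 0.07, limma unadjusted p = 0.0714). Pdgfb, the endothelial factor that recruits pericytes, ran from 0.393 to 0.918 CPM.

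The members were also summed by class in each retina. The 22 endothelial genes summed to 111.8 to 124.5 CPM, with 116.6 ± 1.72 CPM for left retinas and 118.7 ± 4.60 CPM for right retinas (SD, n = 5 each). The 9 mural genes summed to 40.5 to 47.1 CPM, with 44.4 ± 2.28 and 43.5 ± 2.04 CPM, and the 5 factors to 34.1 to 42.8 CPM, with 38.5 ± 2.63 and 38.1 ± 2.62 CPM. The sides overlapped for all 3 classes. Kdr made up 37.6% of the endothelial sum, Rgs5 66.3% of the mural sum and Vegfa 86.0% of the sum of factors. Per kilobase Kdr stood at 4.90 CPM, where the median of the 22 endothelial genes was 0.482 CPM (Cdh5 0.279, Tie1 0.202). Which cells the Kdr reads came from was not tested. Without Kdr and Flt1 (a choice made after seeing their levels) the endothelial sum was highest in the left retina of mouse 61 and the right of mouse 66, at 51.4 and 50.5 CPM, and lowest in the right retina of mouse 64 and the left of mouse 65, at 43.9 and 44.3 CPM. The 7 genes of the blood list summed to 43.9 and 50.1 CPM in the first pair of libraries and to 22.3 and 21.1 CPM in the second, and to 22.1 to 37.0 CPM in the other 6. The 22.1 CPM was that of the right retina of mouse 65, whose endothelial sum without Kdr and Flt1, 47.4 CPM, lay above the median of 46.3 CPM. The part of residual blood in these values was not tested.

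Right was then set against left in the same mice, with the log2(CPM + 1) of each gene fitted by limma and the mouse as a block. No member passed with Benjamini-Hochberg adjustment over all genes, 0 of 25, and over all 14210 tested genes limma likewise called 0 (0%). At an unadjusted p under 0.05 there was 1 member, Abcg2, where 2.34% of all tested genes reached that level. Of the 25 members, 14 were higher and 11 lower on the right, as were 7266 and 6944 of the 14210 tested genes. The median of the members was 0.0058 log2 units, against 0.0017 over all tested genes. For no member were the libraries of the 2 sides apart, as they were for 0.289% of tested genes. With no filter, all 36 members could be fitted, again with 0 called and with Abcg2 alone at an unadjusted p under 0.05.

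Abcg2 measured 3.96, 3.25, 3.65, 2.997 and 4.19 CPM in left retinas and 4.39, 3.90, 4.13, 4.06 and 4.19 CPM in right retinas. The right retina was higher in 4 mice by 0.12 to 0.34 log2 units and nearly level in mouse 68 (0.00089, counted as higher), and the ranges of the sides overlapped. The difference was 0.16 log2 units (SE 0.07, 95% interval 0.01 to 0.31, limma unadjusted p = 0.0355, adjusted p = 0.9996). Abcg2 is also known from cells outside vessels. Beside it, the pigment epithelium gene Enpp2 was higher on the right by 0.16 (SE 0.06, unadjusted p = 0.0254) and the fibroblast gene Col1a2 by 0.40 (SE 0.09, unadjusted p = 0.00148), with an adjusted p of 0.9996 for both in limma. All 8 tested genes of the fibroblast list were higher on the right, with sums of 14.6 to 26.8 CPM in left and 23.9 to 32.2 CPM in right libraries. The lowest left sums were those of mice 65 and 68, and the remaining left libraries had 23.1 to 26.8 CPM. All 9 tested lens genes were also higher on the right, with sums of 8.57 to 49.9 against 26.8 to 870.8 CPM, and 7 of 9 tested pigment epithelium genes. Over all 14210 tested genes, 7266 were higher on the right. Genes of 1 list varied together, so these counts are not of independent genes. In mouse 64 the median difference of each list was below 0 (fibroblast −0.0096, lens −0.42, pigment epithelium −0.33 log2 units). In the other mice it was above 0, and largest for lens genes in mouse 65 (4.80). The part of these tissues in the Abcg2 value was not tested. Without mice 65 and 68 the Abcg2 difference was 0.22 (SE 0.09, limma unadjusted p = 0.0403). That fit keeps mouse 66, with the largest Abcg2 difference (0.34) and lens sums of 36.7 CPM left and 123.6 CPM right. It is therefore no test of the part of these tissues. With 1 mouse left out at a time the Abcg2 difference was 0.12 to 0.20. Its limma unadjusted p exceeded 0.05 without mouse 61, 64, 65 or 66, up to 0.138.

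Members with the same sign in 5 of 5 mice numbered 4 of 25, where 4.79% of tested genes did so. Abcg2, Nos3 and Vegfb were the 3 higher on the right (2.78% of tested genes) and Myh11 the 1 that was lower (2.01%). Nos3 (chromosome 5, bases 24364810 to 24384474) measured 1.05 ± 0.128 CPM for left retinas and 1.31 ± 0.245 CPM for right retinas (SD, n = 5 each), so that right exceeded left by 0.16 log2 units (SE 0.08, 95% interval −0.0052 to 0.33). The right retina of mouse 66, at 1.73 CPM, was the highest of all, and without that mouse the difference was 0.10 (SE 0.08). It was 0.06 with a pseudocount of 5 CPM in place of 1. Myh11 measured 1.41, 1.53, 1.57, 1.54 and 1.499 CPM for left retinas and 1.07, 1.44, 1.32, 1.36 and 1.19 CPM for right retinas, lower on the right by 0.05 to 0.22 log2 units in each mouse. Its mean difference was −0.14 (SE 0.07, 95% interval −0.29 to 0.0034), while the contractile gene Acta2 gave 0.12 (SE 0.09, 95% interval −0.10 to 0.33) with 3 mice positive and 2 negative. For Vegfb the difference was 0.05 (SE 0.06, 95% interval −0.08 to 0.19). Its sides were nearly level in mice 65 and 68 (0.0069 and 0.0078 log2 units, counted as higher). Nos3, Vegfb and Myh11 did not pass in limma (adjusted p = 0.9996 for each).

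**Figure D3:**
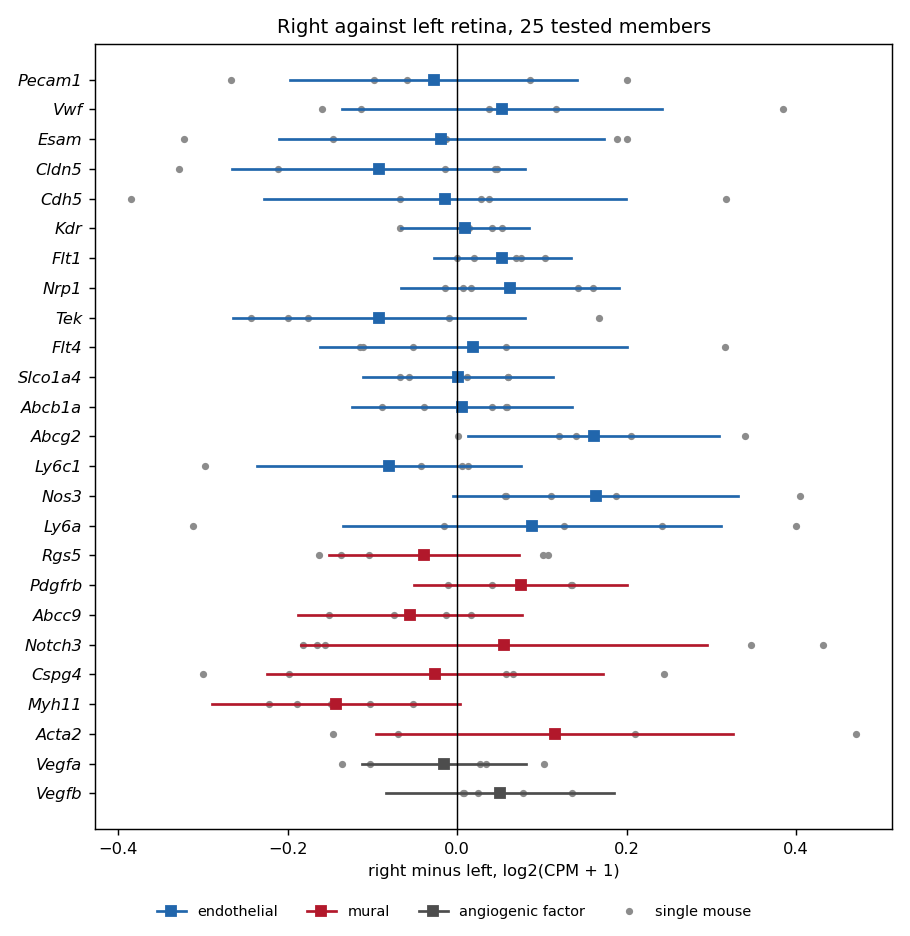
Right-minus-left difference in log2(CPM + 1) of the 25 tested members, ordered by role. Squares are limma estimates with 95% intervals, coloured for endothelial, mural and factor genes, and grey dots are the single mice. All intervals but that of Abcg2 (0.01 to 0.31) include 0.

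The most abundant members had the narrowest intervals. Kdr differed between sides by 0.0096 log2 units (95% interval −0.07 to 0.09), Flt1 by 0.05 (−0.03 to 0.13), Vegfa by −0.02 (−0.11 to 0.08), Rgs5 by −0.04 (−0.15 to 0.07) and Slco1a4 by 0.0014 (−0.11 to 0.11). Among junction genes the intervals were wider, −0.20 to 0.14 for Pecam1, −0.27 to 0.08 for Cldn5 and −0.23 to 0.20 for Cdh5. By class, 10 of 16 tested endothelial genes were higher on the right (median 0.0077), 3 of 7 mural genes (median −0.03) and 1 of 2 factors. Because the lens side is unknown, the size of the difference between fellow eyes was also described without its sign. Its median over mice had a median of 0.10 log2 units over the 25 members, 0.08 over the endothelial and 0.15 over the mural ones, against 0.10 over all tested genes. Mural genes averaging 3.79 to 29.1 CPM had 0.057 (Abcc9), 0.076 (Pdgfrb) and 0.108 (Rgs5). Those averaging 1.01 to 1.39 CPM had 0.147 (Acta2), 0.149 (Myh11), 0.182 (Notch3) and 0.198 (Cspg4). The classes were not compared with genes of like level. Over the members the median size of the difference was 0.049 with a pseudocount of 5 CPM and 0.065 with only genes averaging at least 5 CPM.

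The 5 mice were compared through the moderated F-test of limma on the mouse terms. No member passed over all genes (0 of 25), where 0.57% of the 14210 tested genes, 81 in number, did. At an unadjusted p under 0.05 there were 5 members (Kdr, Abcb1a, Flt1, Vegfa and Slco1a4), where 13.8% of tested genes reached that level. All 5 are genes for which both retinas of a mouse lay beyond the other 8 libraries, a pattern seen in 8 of 25 members and in 35.8% of tested genes. Kdr had the lowest p, with mouse means over a range of 0.28 log2 units (limma F-test, unadjusted p = 0.00219, adjusted p = 0.165). When each library was rescaled to the same sum of listed genes the range was 0.35 (adjusted p = 0.0468), and without mouse 61 it was 0.09 (adjusted p = 0.903). Abcb1a ranged over 0.44 log2 units (unadjusted p = 0.00801, adjusted p = 0.235 in limma), a range that was 0.14 without mouse 64. Flt1, Vegfa and Slco1a4 ranged over 0.23, 0.25 and 0.28 (adjusted p = 0.33, 0.339 and 0.354 in limma). These ranges also rested on single mice. That of Flt1 was 0.12 without mouse 64 and 0.14 without mouse 61, that of Vegfa 0.17 without mouse 68, and that of Slco1a4 0.17 without mouse 64. The median share of the sum of squares that went with the mouse was 49.3% for endothelial and 39.6% for mural members, and 56.1% over all tested genes. A large part of such a share arises with no difference between mice, because 5 mouse means are fitted to 10 libraries.

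**Figure D4:**
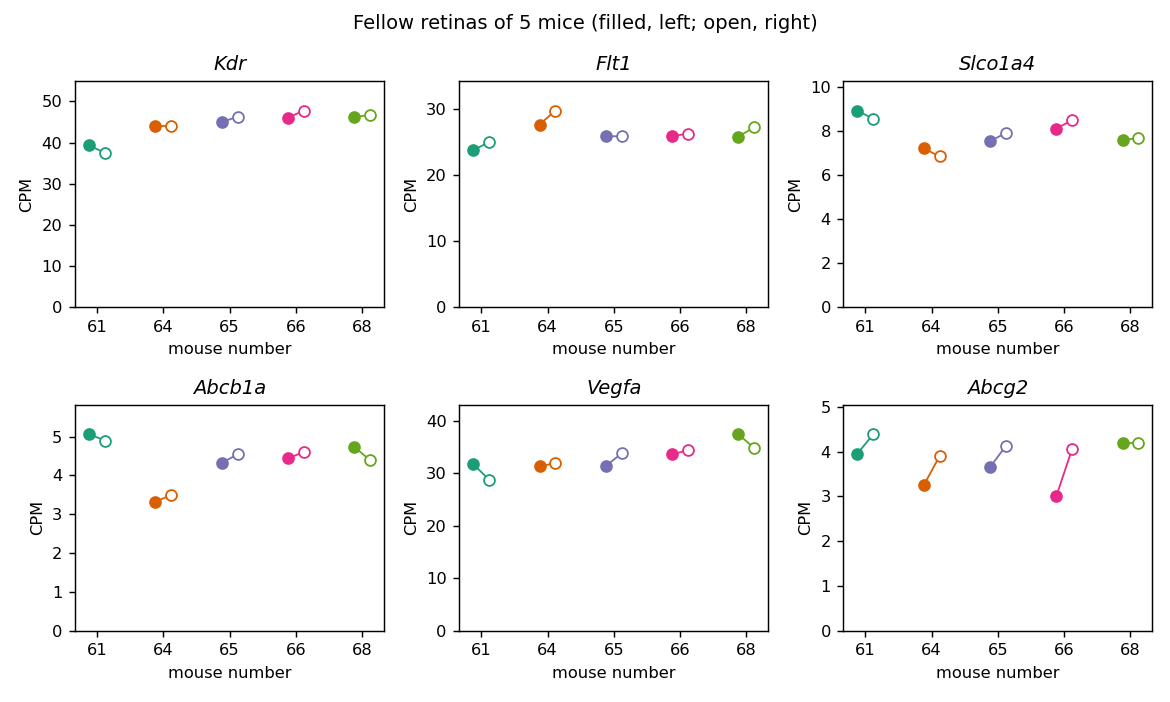
CPM of 6 members in the left (filled) and right (open) retina of each mouse, on axes that start at 0. Kdr is lowest in mouse 61 (39.3 and 37.5 CPM), Abcb1a lowest in mouse 64 (3.32 and 3.499 CPM), and Abcg2 is higher on the right in 4 mice and level in mouse 68.

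Genes of the same pathways outside the 36 were read in the same fits. Of 14 tested further endothelial genes, 12 genes of VEGF, angiopoietin, PDGF and Notch signalling and 6 further mural genes, 0 passed either test in limma, and 8, 8 and 3 of them were higher on the right. At an unadjusted p under 0.05 these lists had 1, 0 and 0 genes between sides and 4, 3 and 0 between mice, where 2.34% and 13.8% of all tested genes reached that level. Ephb4, a receptor of venous endothelium, had the lowest p between mice of the 3 lists. In mouse 64 it stood at 1.65 (left) and 1.92 CPM (right), in mouse 61 at 0.760 and 0.824 CPM, and 0.944 to 1.23 CPM was the span of the remaining 6 libraries (limma adjusted p = 0.145). Podxl, a sialomucin of endothelium that neurons also express, was likewise highest in mouse 64, at 55.5 and 55.2 CPM, where all the others lay at 42.7 to 52.5 CPM (limma adjusted p = 0.196 between mice). In the norrin and WNT list, which controls the barrier through Fzd4 and Tspan12, 0 of 8 tested genes passed. At an unadjusted p under 0.05 in limma it had 1 gene between sides and 1 between mice, against 2.34% and 13.8% of all tested genes. Reck was higher on the right by 0.17 (SE 0.06, unadjusted p = 0.0227, adjusted p = 0.9996 in limma), and Tspan12 was highest in mouse 61, at 2.71 and 3.11 CPM (limma adjusted p = 0.286 between mice).

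Of 11 tested hypoxia genes, whose regulators Hif1a and Epas1 drive Vegfa, 0 passed between sides in limma, with 0 at an unadjusted p under 0.05. Between mice 1 passed and 5 had an unadjusted p under 0.05, against 0.57% and 13.8% of all tested genes. The gene that passed was Ndrg1, induced by hypoxia in many cells, at 49.5 and 48.5 CPM in mouse 61, 61.8 and 60.3 in mouse 64, 54.5 and 53.3 in mouse 65, 66.4 and 64.7 in mouse 66 and 54.4 and 54.8 in mouse 68 (limma F-test, adjusted p = 0.0181). Ndrg1 was highest in mouse 66 and Vegfa in mouse 68, and the relation of the hypoxia genes to Vegfa over the mice was not tested. In the blood list 1 of 4 tested genes passed between mice, against 0.57% of all tested genes. This was Hba-a2, which encodes a globin chain (limma F-test, adjusted p = 0.0421). It was lowest in mouse 65 (6.39 and 5.24 CPM) and highest in mouse 66 (11.4 and 13.1 CPM). The globin gene Hba-a1 did not pass (limma F-test, adjusted p = 0.452), at 8.58 and 12.9 CPM in mouse 66 and 11.2 and 8.50 CPM in mouse 61. How reads were shared among globin genes is not stated in these sources.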

How the data were processed

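Ribosomal RNA was removed from retinal total RNA and stranded libraries were made, per the labels' protocols. The submitters' processing notes name STAR, Partek and GRCm38 (mm10), while versions, filters and the way reads were counted are not stated in these sources. The authors deposited normalized values, read as CPM: less 0.0001, 90.4% to 91.5% of low values are whole multiples (tolerance 0.1) of 1 step per library. That share is too low to recover reads, so no count test was run. The step implies 89.7 to 113.8 counts per CPM, with listed genes summing to 321661 to 346696 CPM in a library. CPM are not divided by length.

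For 14210 genes averaging 1 CPM or more, log2(CPM + 1) was fitted with limma 3.58.1 in R 4.3.3 on mouse and side, with a variance trend. Tests look in both directions, p-values were adjusted by Benjamini-Hochberg over these genes, and calls use 0.05. The scale understates changes of low genes, and p-values cover only the spread among these 5 mice. The mouse was the block because eyes of 1 animal were compared, per the labels' numbers; the deviations of fellow eyes had correlations over genes of 0.607 (mouse 61), 0.143 (64), 0.166 (65), 0.172 (66) and 0.311 (68). Exon lengths are unions of GENCODE M21 exons, and a gene's end is the deposited stop less 1, which gave M21 coordinates for all 36 members. Members and lists were chosen with earlier results of these data known. Named are all members and the genes of each other list that pass (else up to 3 of lowest p). Of marker lists, the 4 most abundant and those with a library over 3 times the median are named. Some are given only in sums, and other markers named were chosen after their values were seen. Alternatives were other pseudocounts, filters, scalings and variance priors, no block, and leaving out mice.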

Additional observations from a re-analysis of the deposited data

Results flagged for a closer look

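In 6 of the 72 groups of 5 libraries formed by the 36 members and the 2 sides (8.33%), 1 library stood apart from the other 4 by more than Dixon's 95% critical value of 0.71, the share of the group's range taken by its gap. Chance flags about 1 group in 20. Des on the left had a gap of 0.852 of the range, with mouse 68 at 1.31 CPM and the others at 0.116 to 0.292 CPM. Angpt1 on the left had 0.892, with mouse 66 at 0.722 CPM below 0.949 to 0.977 CPM. Nrp1 on the left had 0.739, with mouse 65 at 4.62 CPM below 5.21 to 5.42 CPM, and Sox17 on the left had 0.734, with the same library at 0.472 CPM above 0.336 to 0.372 CPM. Cdh5 on the right had 0.715, with mouse 61 at 0.679 CPM below 1.19 to 1.40 CPM. Nos3 on the right had 0.737, with mouse 66 at 1.73 CPM above 1.10 to 1.27 CPM.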

How the results depend on the processing

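No member passed right against left under any of the 14 alternatives run (smallest adjusted p = 0.985 in limma). This includes the fit with no replicate block, in which 0 members and 0 genes passed. Of the 25 members, 14 kept the sign of their difference in every alternative that tested them and 11 changed it in at least 1. Where 1 mouse was left out at a time the differences of these 11 ran from −0.084 to 0.032 for Pecam1, −0.10 to 0.079 for Cdh5, −0.073 to 0.057 for Esam, −0.055 to 0.053 for Flt4, −0.030 to 0.11 for Vwf, −0.0013 to 0.029 for Kdr, −0.013 to 0.019 for Slco1a4, −0.0074 to 0.030 for Abcb1a, −0.094 to 0.042 for Cspg4, −0.039 to 0.11 for Notch3 and −0.045 to 0.015 for Vegfa. Without both mice 65 and 68 the values were 0.0067 for Pecam1, −0.0022 for Kdr and −0.022 for Slco1a4, and median-of-ratios scaling gave −0.0012 for Slco1a4. Between mice, 1 member (Kdr) passed after rescaling to the sum of listed genes and 0 in the other 12 alternatives. Over all genes, 36 passed without the variance trend, 41 without mice 65 and 68, and 23 to 88 with 1 mouse left out, the lowest without mouse 61. The cause was not tested. Without mouse 66 and without mouse 68 the counts were 53 and 39. The fellow-eye difference of the members, 0.10, was 0.049 with a pseudocount of 5 CPM, 0.065 with a mean of at least 5 CPM, and 0.087 to 0.11 with 1 mouse left out. For Nos3 the difference of 0.16 was 0.10 without mouse 66. For Abcg2 the difference was 0.20 with a pseudocount of 0.1 CPM and 0.09 with 5 CPM, and without mouse 66 it was 0.12. Members below 1 CPM rest on at most 97 counts per library on average, where counting error alone gives a coefficient of variation of 10.1% or more.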
